A study of Mus musculus with 4 samples.

Results

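Peroxisomes are membrane-bound organelles that shorten very long, branched and dicarboxylic fatty acids and carry out the first steps of ether lipid synthesis. Peroxins assemble them: they insert membrane proteins, carry enzymes in from the cytosol, recycle the import receptors and divide the organelle. Glands that secrete lipid, such as the meibomian glands of the lid margin, make and trim fatty acyl chains at a high rate. The genes followed here are the peroxins listed in the tables, found by symbol, and 21 named genes for peroxisomal lipid transport, beta-oxidation, alpha-oxidation and ether lipid synthesis. That gives 37 genes, 16 of them peroxins, while 15816 genes in all were listed in some library. Of the 37, 36 were listed in every library at a mean of at least 1 RPKM, among 12073 genes that met both conditions. RPKM is a read density scaled to gene length and library size. The gene left out was Abcd2, listed only at 2 years. Pex5l, a relative of an import receptor known from brain, was listed in no library and so had a value below the lowest one listed, or none.

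The study set eyelids of young and old mice side by side. Lower eyelids of wild-type C57BL/6 mice, an inbred strain, gave 1 RNA library for each combination of sex and age, with 3 months as the young age and 2 years as the old. No treatment, transgene or deletion is labelled, and how many animals a library holds is not labelled either. A lid library mixes gland, epidermis, conjunctiva, muscle and dermis, so fewer cells of a type and less RNA per cell cannot be told apart. Coverage totalled 3.16 to 3.91 gigabases, and 14800 to 15299 genes were listed per library. The old female library stood apart in the sum of its suprabasal epidermis markers, which was 72.8 RPKM there and 988 to 1545 RPKM in the others. Krt1 and Krt10 had 6.46 and 17.5 RPKM in old females, and 380 and 512 in old males. Of the 6 markers analysed, 4 were called lower in old females than in old males (1.88% of all genes). The other 2 were not lower there: Ivl had 44.0 RPKM in old females and 25.4 in old males, and Flg2 had 1.43 and 1.38. Of 5 genes that mark liver or kidney, 0 were listed. Since each group is 1 library, differences between groups have neither an error nor a p-value, and a gene was called when log2(RPKM + 1) differed by at least 1, which is 2-fold.

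RefSeq promoters were at hand for 27 of the 37 genes, as 32 windows from 250 bases before to 50 bases after a start site on build GRCm38.p6. G or C made up 42.7% to 79% of a window (median 57.3%, and 52.7% over 32851 windows of all genes), and a window held 2 to 45 CG dinucleotides (median 16.5, and 7 over all genes). The first 3 windows shown, with CG in capitals, belong to the members at the ends of the range of differences with age. Acoxl, an acyl-CoA oxidase-like gene, had the lowest difference in males and has 2 CG dinucleotides (chr2:127854378-127854677, plus strand). Hacl1, the lyase of alpha-oxidation, had the highest in females and has 16 (chr14:31640916-31641215, minus strand). Agps, which makes the ether bond of ether lipids, had the lowest in females and has 32 (chr2:75831927-75832226, plus strand).
Acoxl: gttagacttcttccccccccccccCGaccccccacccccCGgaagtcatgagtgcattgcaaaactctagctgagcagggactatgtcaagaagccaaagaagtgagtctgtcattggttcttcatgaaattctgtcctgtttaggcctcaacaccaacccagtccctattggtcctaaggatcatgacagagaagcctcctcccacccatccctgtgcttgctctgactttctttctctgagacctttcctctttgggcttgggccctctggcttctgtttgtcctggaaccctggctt
Hacl1: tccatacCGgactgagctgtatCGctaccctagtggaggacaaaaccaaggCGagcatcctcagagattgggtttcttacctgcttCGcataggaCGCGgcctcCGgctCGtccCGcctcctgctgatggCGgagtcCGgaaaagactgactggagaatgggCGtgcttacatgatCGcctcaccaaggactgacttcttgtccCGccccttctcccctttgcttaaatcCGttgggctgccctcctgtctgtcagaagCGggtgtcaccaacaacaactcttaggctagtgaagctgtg
Agps: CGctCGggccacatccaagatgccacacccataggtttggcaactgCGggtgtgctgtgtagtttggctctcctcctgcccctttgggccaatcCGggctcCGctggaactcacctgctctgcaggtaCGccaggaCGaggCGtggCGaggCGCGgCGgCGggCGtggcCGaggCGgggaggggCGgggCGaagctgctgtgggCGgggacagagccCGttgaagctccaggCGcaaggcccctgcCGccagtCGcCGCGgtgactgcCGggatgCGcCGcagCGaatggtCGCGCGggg
PPAR receptors, which induce peroxisomal oxidation genes in mouse liver, bind 2 copies of AGGTCA in the same direction with 1 base between them. That exact pair, searched on both strands, was in 0 of the 32 windows and in 0.0396% of all windows. A single AGGTCA, which the pair contains, was on either strand in 3 of the 32 (Pex11g, Phyh and Scp2) and in 16.3% of all windows. Scp2, which encodes a thiolase and a sterol carrier protein, is shown because its match is the upstream one nearest to a start site. The match, in capitals, begins 109 bases before the start (chr4:108118498-108118797, minus strand).
Scp2: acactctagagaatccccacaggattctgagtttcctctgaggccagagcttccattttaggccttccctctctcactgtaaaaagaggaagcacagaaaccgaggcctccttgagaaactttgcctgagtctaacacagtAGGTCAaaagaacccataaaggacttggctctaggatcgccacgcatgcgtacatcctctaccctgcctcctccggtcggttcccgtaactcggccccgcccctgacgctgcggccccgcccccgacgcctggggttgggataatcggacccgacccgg
These letters describe the windows only, and nothing outside them was searched.

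The young female library was lowest for 32 of the 36 analysed members and the old female library highest for 29, where 35.3% and 46.5% of all genes had those patterns. For 23 of the 36 the libraries stood, from low to high, as young female, old male, young male, old female, which 17.7% of all 12073 genes did. Series of 4 values are given in that order from here on. Members summed to 1149, 1557, 1878 and 2465 RPKM, or 0.261%, 0.358%, 0.449% and 0.608% of all listed RPKM. In this order the males lie between the females, so the ages overlap. Both old libraries lay above both young ones for 5 of the 36 (Pex2, Pex7, Abcd4 and Crot among them) and for 18.6% of all genes, and below them for 0 and for 13%. Both females lay above both males for 0 members and 9.71% of all genes, and below them for 0 members and 4.82%.

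**Figure D1:**
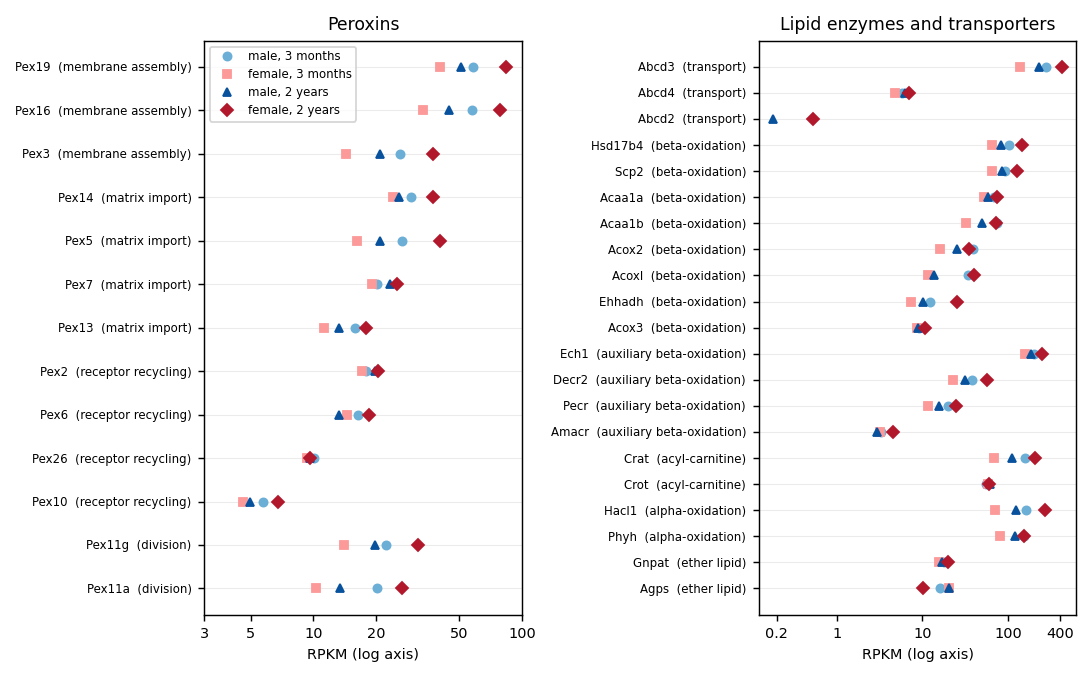
Level of each gene in RPKM (log axis) in the 4 libraries, with peroxins on the left and enzymes and transporters on the right, and the role of each gene in brackets. Points are single libraries without error, 3 members are not shown, and Abcd2 has points at 2 years only. The young female point is lowest for 29 of the 33 genes shown with 4 points.

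In females the members stood higher at 2 years than at 3 months. Of the 36, 17 were called higher (5.3% of all genes) and 0 lower (3.31%). The median log2 difference was 0.94 over the members and 0.08 over all genes. A total of 35 lay above 0 (59.1% of all genes) and 1, Agps, below (40.8%), and median scaling left 33 above, with Pex26 and Crot then below. In males the members stood slightly lower at 2 years, at a median of -0.24 (-0.01 over all genes). A total of 30 lay below 0 (53% of all genes) and 6 above (47%), and median scaling left 29 below, with Acox3 then above. Acoxl was the 1 member called lower in males (0.207% of all genes), and 0 were called higher (0.795%). Above 0 in females and below 0 in males were 30 members and 36.9% of all genes.

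Between the sexes, 34 of the 36 members were lower in females at 3 months (52.5% of all genes) and 2 higher (47.5%), with 33 lower after median scaling. Abcd3, Acaa1b, Acox2, Acoxl, Crat and Hacl1 were called lower, 6 in all (0.928% of all genes), and 0 higher (0.348%). At 2 years 34 were higher in females (60.7%) and 2 lower (39.3%), with 31 higher after median scaling. Acoxl, Ehhadh and Hacl1 were called higher, 3 in all (1.76%), and 0 lower (1.88%). With a pseudocount of 5 Ehhadh was under 2-fold, which left 2 (0.754% of all genes). Medians were -0.50 and 0.49 at the 2 ages, and -0.01 and 0.07 over all genes. These comparisons reuse the 4 libraries of the comparisons with age. That of the males and that at 3 months do not use the old female library.

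**Figure D2:**
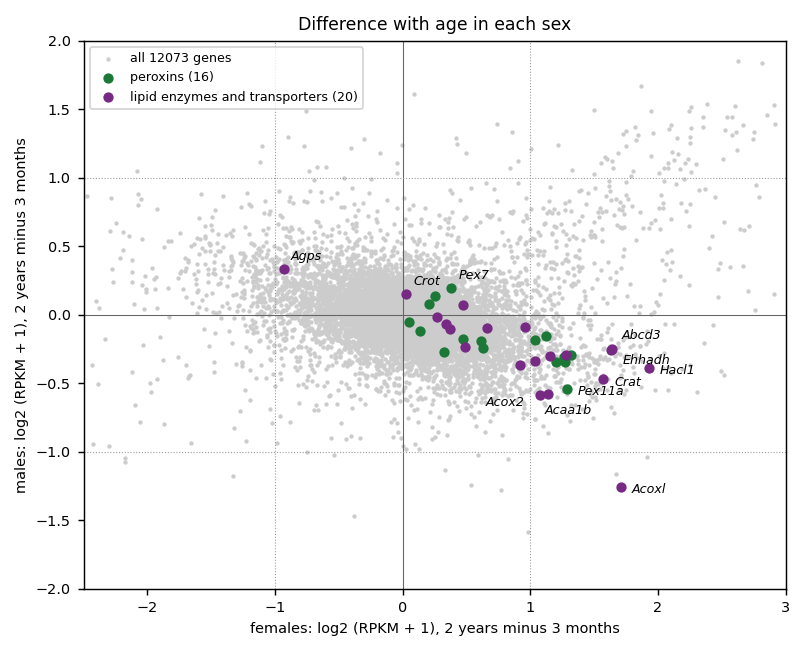
Difference of log2(RPKM + 1) between 2 years and 3 months in females (horizontal axis) and in males (vertical axis), for 12073 genes in grey with 16 peroxins and 20 enzymes and transporters in colour. Dotted lines mark 2-fold, and 52 genes lie outside the axes. Most members are right of 0 and below 0 (30 of 36, of which Acox3 is above 0 in males and Pex26 below 0 in females after median scaling), and Agps is at -0.93 in females and 0.33 in males.

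Averaged over the sexes, no member passed the test of age. With limma, 0 of 36 members and 0% of all genes had a Benjamini-Hochberg adjusted p under 0.05, and the lowest adjusted p of a member was 1. Unadjusted, 0 members and 353 genes had a p under 0.05. Averaged log2 differences ran from -0.30 (Agps, standard error 0.36) to 0.77 (Hacl1, standard error 0.65), and 34 of 36 were above 0, or 33 after median scaling. The standard error here comes partly from how far the difference with age differs between the sexes. The rest comes from the variance trend over all genes. That trend weighed as 2.97 degrees of freedom (median), against 1 for the gene itself. The median of 0.28 was 0.05 without the old female library, 0.09 without the young female, 0.48 without the old male and 0.68 without the young male. For sex averaged over the ages, limma gave 0 members and 0% of all genes, with 0 members and 63 genes at an unadjusted p under 0.05. The median sex difference of 0.01 was 0.39 without the young female library, -0.43 without the old female, 0.09 without the young male and -0.07 without the old male.

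Membrane assembly had the highest median of the peroxin groups in females, 1.2, with all 3 genes called higher (5.3% of all genes). Pex19, the cytosolic chaperone of peroxisomal membrane proteins, had 40.3 RPKM in young females, 51.0 in old males, 58.0 in young males and 83.9 in old females. Pex16, a membrane receptor in this step, had 33.5, 44.9, 57.4 and 78.2 RPKM in the same order. Pex3, the docking factor for Pex19, had 14.4, 20.9, 25.9 and 37.4 RPKM. The young female library was lowest and the old female highest for each, with overlapping ages. Differences with age were log2 1.04 in females and -0.18 in males for Pex19, log2 1.2 in females and -0.35 in males for Pex16 and log2 1.32 in females and -0.30 in males for Pex3. Pex19 was under 2-fold after median scaling and with a pseudocount of 5. Pex19 lies at chr1:172126755-172136497, Pex16 at chr2:92374676-92381220 and Pex3 at chr10:13523842-13552906 on mm10.

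Of the import receptors and docking factors, Pex5 was called higher in females (5.3% of all genes) and the other 3 were not called. Pex5 binds the signal at the carboxyl end of most matrix enzymes. It had 16.2 RPKM in young females, 20.9 in old males, 26.8 in young males and 40.4 in old females (log2 1.27 in females and -0.34 in males). Pex14, its docking partner, had 24.1, 25.6, 29.5 and 37.3 RPKM in the same order (log2 0.61 in females and -0.20 in males). Pex13, the other docking protein, had 11.2, 13.3, 15.9 and 17.9 RPKM. These share the usual order, with a narrower range for the docking proteins. Pex7, the receptor for the signal at the amino end, had 19.1, 23.4, 20.3 and 25.2 RPKM, with both old libraries above both young ones (log2 0.38 in females and 0.20 in males). In GENCODE vM21, 28.3% of the exon bases of Pex14 are shared with another gene, and the strand setting of the counting is not known here.

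Receptor recycling had the lowest median of the peroxin groups in females, 0.29 over 6 genes with 1 called higher (5.3% of all genes). In males the median was -0.15, with 0 called. Pex2, a ubiquitin ligase subunit and the most abundant gene of the group, had 17.1 RPKM in young females, 19.8 in old males, 17.95 in young males and 20.5 in old females (log2 0.25 in females and 0.13 in males). Pex6, an ATPase that helps to pull ubiquitinated Pex5 from the membrane, had 14.6, 13.3, 16.3 and 18.5 RPKM in the same order (log2 0.33 in females and -0.27 in males). The old male library was lowest for Pex6. Pex26, its membrane anchor, had 9.34, 9.65, 10.1 and 9.69 RPKM, nearly level. Pex10, another ligase subunit, had 4.62, 4.97, 5.77 and 6.79 RPKM (log2 0.47 in females and -0.18 in males), the usual order.

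Of the division peroxins, Pex11a and Pex11g were called higher in females. Pex11a, which PPAR ligands induce in rodent liver, had 10.3 RPKM in young females, 13.5 in old males, 20.2 in young males and 26.5 in old females (log2 1.29 in females and -0.55 in males). Pex11g had 14.0, 19.8, 22.3 and 31.8 RPKM in the same order (log2 1.12 in females and -0.16 in males), and was under 2-fold with a pseudocount of 5. Young females were lowest and old females highest for both, with overlapping ages. Exon bases shared with other annotated genes came to 41.1% for Pex11g.

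**Figure D3:**
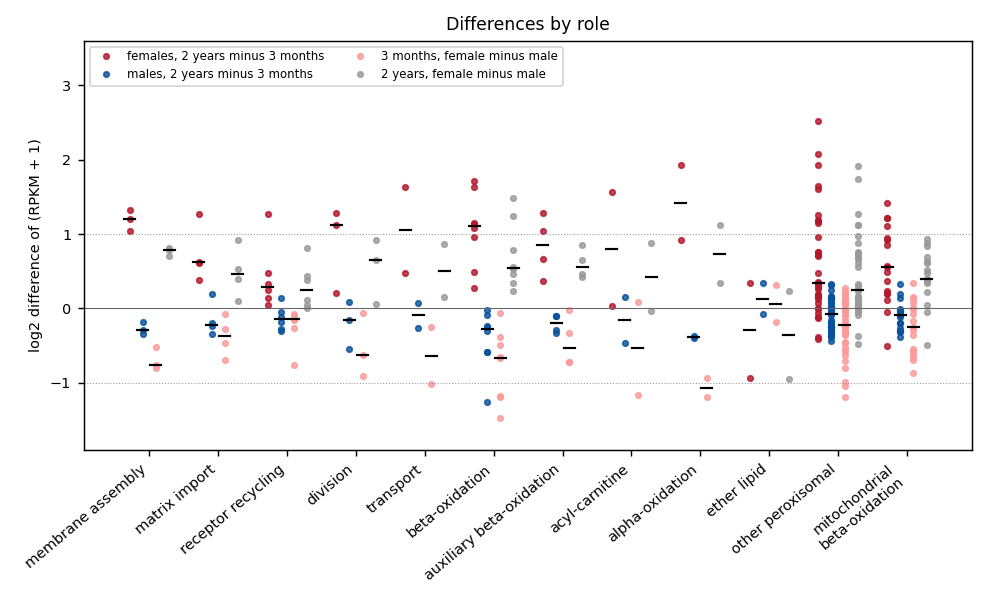
Differences of log2(RPKM + 1) for each gene, by role, in the 4 comparisons of single libraries, with a bar at the median of each role and dotted lines at 2-fold. For females with age every peroxin lies above 0 (Pex26, at 0.05, is below 0 after median scaling), and for males with age 13 of the 16 lie below 0.

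The 3 ABC transporters differed widely in level. Abcd3, which brings branched and dicarboxylic acyl-CoA into the peroxisome, was the most abundant member. It had 136 RPKM in young females, 231 in old males, 277 in young males and 423 in old females, and ranked 455, 234, 196 and 115 among the genes of those libraries. The difference with age was log2 1.63 in females and -0.26 in males, and that of females from males at 3 months was -1.02, under 2-fold after median scaling. Abcd3 lies at chr3:121758910-121815215 on mm10. Abcd4, a relative that acts in lysosomal export of cobalamin, had 4.75, 6.19, 5.84 and 6.98 RPKM, with both old libraries above both young. Abcd2, a carrier of very long-chain acyl-CoA, was listed at 0.532 RPKM in old females and 0.182 in old males, and in neither young library. In the authors' deposited table it had 0.0821 RPKM in young females. The fat marker Adipoq was listed at 3.45 RPKM in old females, 0.223 in old males and 0.153 in young males. Its part in the Abcd2 values was not tested.

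The core enzymes of beta-oxidation were all above 0 with age in females and all below 0 in males, except that Acox3 was above 0 in males after median scaling. Of the 8, 5 were called higher in females (5.3% of all genes), and medians were 1.11 and -0.28. Acoxl, whose protein is related to the oxidases of the first step, had 11.5 RPKM in young females, 13.5 in old males, 33.8 in young males and 39.7 in old females. Old males lay near young females, and young males near old females (log2 1.71 in females and -1.26 in males). In the authors' deposited tables its signed fold was 3.46 in females and -2.5 in males, computed from the same RPKM values. Acoxl lies at chr2:127854628-128123892 on mm10.

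Acox2, the oxidase of branched chains and bile acid precursors, had 16.2 RPKM in young females, 25.2 in old males, 38.3 in young males and 35.2 in old females (log2 1.08 in females and -0.59 in males). Young males were highest here, and the female difference was under 2-fold after median scaling and with a pseudocount of 5. Acox3, an oxidase of pristanoyl-CoA, had 8.65, 8.92, 9.06 and 10.6 RPKM in the same order, all close together. Ehhadh and Hsd17b4 are the bifunctional enzymes of the middle steps. Ehhadh, which PPAR ligands induce in rodent liver, had 7.41, 10.1, 12.2 and 25.2 RPKM. Old females stood above the other 3 (log2 1.64 in females and -0.25 in males). Hsd17b4, which handles branched and very long chains, had 64.4, 83.4, 103 and 144 RPKM (log2 1.15 in females and -0.30 in males).

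Thiolases make the final cut. Acaa1b had 32.0 RPKM in young females, 49.0 in old males, 73.8 in young males and 71.5 in old females (log2 1.14 in females and -0.58 in males). Acaa1a had 52.5, 58.5, 69.1 and 74.0 RPKM in the same order (log2 0.49 in females and -0.24 in males). Young males and old females were close in both, and young females lowest. Their transcripts are 96% identical over 1450 aligned bases, so reads may be split between the copies and the contrast between them is uncertain. Of the exon bases of Acaa1b, 11.4% are also shared with another gene. Scp2 had 64.5, 85.4, 91.2 and 126 RPKM (log2 0.96 in females and -0.09 in males), the usual order.

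Auxiliary enzymes deal with double bonds and methyl branches, and 2 of the 4 were called higher in females (5.3% of all genes). Ech1, a dienoyl-CoA isomerase also found in mitochondria, had 158 RPKM in young females, 186 in old males, 199.5 in young males and 249.8 in old females (log2 0.66 in females and -0.10 in males). Decr2, the peroxisomal dienoyl-CoA reductase, had 22.7, 30.9, 38.2 and 56.4 RPKM in the same order (log2 1.28 in females and -0.30 in males). Pecr, an enoyl-CoA reductase, had 11.6, 15.5, 19.9 and 24.9 RPKM (log2 1.04 in females and -0.34 in males), and was under 2-fold with a pseudocount of 5 and after median scaling. The usual order held for these 3, with overlapping ages. Amacr, a racemase of methyl-branched chains, had 3.23, 2.98, 3.29 and 4.48 RPKM, the lowest levels of the analysed members. Of the exon bases of Pecr, 11.5% are shared with other genes.

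The carnitine acyltransferases, which turn shortened chains into carnitine esters, were unlike each other. Crat, the acetyltransferase shared with mitochondria, had 68.8 RPKM in young females, 112 in old males, 155 in young males and 206 in old females (log2 1.57 in females and -0.47 in males). Crot, the octanoyltransferase, had 58.6, 61.1, 55.0 and 59.8 RPKM in the same order (log2 0.03 in females and 0.15 in males, the first below 0 after median scaling). Crat had the usual order, while Crot was nearly level.

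Alpha-oxidation removes 1 carbon from branched chains such as phytanic acid. Hacl1 had 69.8 RPKM in young females, 123 in old males, 162 in young males and 269 in old females (log2 1.93 in females and -0.39 in males). Phyh, the hydroxylase that starts the pathway, had 79.7, 119, 154 and 151 RPKM in the same order (log2 0.92 in females and -0.37 in males). Young females were lowest for both, and young males and old females were level for Phyh. Hacl1 lies at chr14:31607226-31640965 on mm10, and 33.3% of its exon bases are shared with other genes in GENCODE vM21.

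Ether lipid synthesis held the 1 member below 0 with age in females before any scaling. Gnpat, which acylates dihydroxyacetone phosphate, had 15.4 RPKM in young females, 16.7 in old males, 17.6 in young males and 19.8 in old females (log2 0.34 in females and -0.07 in males). Agps, the next enzyme, had 20.2, 20.6, 16.1 and 10.1 RPKM in the same order (log2 -0.93 in females and 0.33 in males). Old females were lowest for Agps and for no other of the 36, and at 2 years females differed from males by -0.96. In females it was called lower after median scaling. Agps lies at chr2:75832177-75931350 on mm10. Members given here with all 4 values that the rule for named genes does not take were chosen after their values were seen.

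Of 45 further peroxisomal genes, 39 were listed and 34 analysed. Among the 34, 9 were called higher in females with age (5.3% of all genes) and 0 lower (3.31%). In males 0 were called higher (0.795%) and 0 lower (0.207%). Medians were 0.34 in females and -0.07 in males (0.08 and -0.01 over all genes). In females 28 of the 34 lay above 0 (59.1% of all genes) and 6 below (40.8%), down to -0.42. Acot5, an acyl-CoA thioesterase, had 8.60, 13.6, 18.7 and 53.9 RPKM (log2 2.51 in females and -0.44 in males). Pxmp4, a membrane protein, differed by 2.07 in females and -0.38 in males. Far1, the reductase that supplies fatty alcohols for ether lipids, had 72.6, 127, 145 and 279 RPKM, so it was above 0 in females (1.92) where Agps was below. Ephx2, the soluble epoxide hydrolase, differed by 1.64 in females, catalase (Cat) by 1.60 and the thioesterase Acot4 by 1.25. In males these 6 genes, from Acot5 to Acot4, differed by -0.44 to -0.19. Of 18 mitochondrial beta-oxidation genes 17 were analysed. Of these, 4 were called higher in females (5.3% of all genes), 0 lower (3.31%) and 0 in males. Medians were 0.55 in females and -0.09 in males. In females 15 of the 17 lay above 0 (59.1% of all genes) and 2 below (40.8%), down to -0.51. The 4 called higher were the acylcarnitine carrier Slc25a20 (1.42), the palmitoyltransferase Cpt2 (1.22), the reductase Decr1 (1.22) and the dehydrogenase Etfdh (1.11).

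Markers of meibocytes and sebocytes, the lipid-making gland cells, had the order of the members. All 13 were analysed and summed to 4315, 7571, 10155 and 14398 RPKM. Of these, 12 were called higher with age in females (5.3% of all genes) and 0 in males (0.795%), with medians of 1.71 and -0.46. The 5 mucosal keratins summed to 7752, 6846, 4824 and 1411 RPKM, with 4 called lower in females (3.31% of all genes). Suprabasal markers, 6 of 7 listed and Flg not, summed to 1545, 988, 1375 and 72.8 RPKM. Of these, 5 were called lower in females (3.31% of all genes) and 3 in males (0.207%). The 9 muscle markers summed to 262, 794, 292 and 1376 RPKM. All 9 were called higher in females (5.3% of all genes) and in males (0.795%). The 6 fibroblast markers summed to 30.6, 83.1, 35.0 and 236 RPKM. The 7 adipocyte markers, 2 of them analysed, summed to 42.5, 36.3, 42.5 and 72.1 RPKM. Most of these sums is Fabp4, at 41.5, 34.3, 41.5 and 52.5 RPKM. Cfd had 0.801, 1.04, 0.305 and 10.8 RPKM, and Plin1 (0.788 RPKM) and Lep (0.305 RPKM) were listed in old females only. The part of these cell types in the members' differences was not tested.

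**Figure D4:**
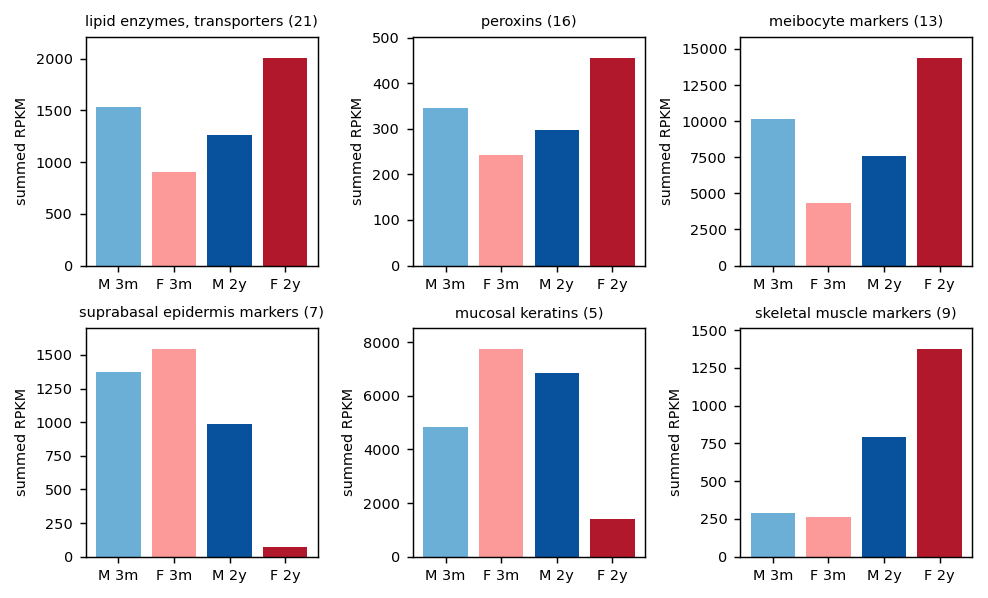
Summed RPKM in each of the 4 libraries (M male, F female, 3m 3 months, 2y 2 years) for the members and for marker lists, with bars from 0 and no error because each is 1 library. Peroxins (243 to 456 RPKM), enzymes and transporters (905 to 2009 RPKM) and meibocyte markers have young females lowest and old females highest.

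The authors' deposited table of genes higher in old females holds 1983 genes, of which 12 are members. That of genes lower in old males holds 315 genes, of which 1, Acoxl, is a member. Those of genes lower in old females (750) and higher in old males (673) hold 0 members. In the authors' deposited table for females the fold was 3.40 for Ehhadh, 2.60 for Pex3 and 2.58 for Pex11a. These folds are ratios of the RPKM values given above, so they are no separate measurement. Also there are Abcd2, Acox2, Acoxl, Decr2, Pecr, Pex5, Pex11g and Pex16. The highest RPKM in the authors' deposited table of genes higher in old females is 114. Abcd3, Crat, Hacl1 and Hsd17b4, which are above that level at 2 years, are not in it, nor are Acaa1b and Pex19, which are below.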

How the data were processed

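RNA of the lower eyelid was sequenced in 1 library per age and sex. Tools named in the submitters' processing notes are TopHat and Cufflinks, with build mm10 and no versions or roles. The authors deposited RPKM values for genes above a low floor. The other column of those tables, headed as a raw count, was read as coverage: deposited coverage totals 3.16 to 3.91 gigabases per library. Read depth is therefore unknown, so no count test was run and no counting interval is given. The authors also deposited, from comparisons with Cyber-T named in the files, a signed fold (a score) and p-values, of which only folds and RPKM are printed.

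From RPKM, log2(RPKM + 1) was computed for 12073 genes listed in every library at a mean of at least 1 RPKM. This understates differences of low genes. A total of 2 symbols on more than 1 row were left out. Averaged effects came from limma 3.58.1 (R 4.3.3) with an intensity trend, terms for age and for sex, and Benjamini-Hochberg adjustment over all genes. The fit has 1 residual degree of freedom, was tested on simulated data, and its p-values reflect only how these 4 libraries scatter, which may be technical. Alternatives were pseudocounts of 0.1 and 5, no filter, median scaling, no trend and leaving out each library. Values in all libraries are given for members 2-fold apart with age in either sex, the 5 most abundant, those listed in fewer than 4 libraries and the most abundant of each role. Of the further lists, genes 2-fold apart with age are named, at most 6 each. The members and lists were chosen with earlier results of these data known. Some genes that these rules take are not reported here by name, though counts, sums and medians include them. Protein targeting signals were not analysed here. Promoters are from RefSeq, and exon overlaps and transcripts from GENCODE vM21.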

Additional observations from a re-analysis of the deposited data

Results flagged for a closer look

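The 16 members given here were at least 2-fold higher at 2 years in females and lower at 2 years in males. Calls of higher with age in the female libraries came to 5.3% of all genes. Opposite signs, above 0 in females and below 0 in males, were seen for 36.9% of all genes. The share of all genes that meets the joint rule is not given here, so the 16 have no matching background. The difference between the sexes was not tested, since it is the residual of the fit. Among the peroxins the log2 differences in females were 1.29 for Pex11a, 1.12 for Pex11g, 1.2 for Pex16, 1.04 for Pex19, 1.32 for Pex3 and 1.27 for Pex5. Those in males were -0.55, -0.16, -0.35, -0.18, -0.30 and -0.34 in the same order. Among the transporters and enzymes of beta-oxidation the differences in females were 1.63 for Abcd3, 1.08 for Acox2, 1.71 for Acoxl, 1.15 for Hsd17b4, 1.14 for Acaa1b and 1.64 for Ehhadh. In males they were -0.26, -0.59, -1.26, -0.30, -0.58 and -0.25. For Hacl1, Crat, Decr2 and Pecr the differences were 1.93, 1.57, 1.28 and 1.04 in females and -0.39, -0.47, -0.30 and -0.34 in males.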

How the results depend on the processing

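The 17 members called higher in females (5.3% of all genes) numbered 17 with a pseudocount of 0.1 (7.3%) and without the filter (4.65%), 12 with a pseudocount of 5 (2.64%) and 14 after median scaling (4.59%). Members called lower in females came to 0 (3.31% of all genes), and to 1 (Agps) after median scaling (4.01%). For sex at 2 years, members called lower came to 0 (1.88% of all genes), and to 1 (Agps) with a pseudocount of 0.1 (2.45%) and 1 after median scaling (2.24%). Acoxl was the 1 call in males under each of these alternatives, and no called member changed sign under them. With limma, leaving out each library in turn gave 0 to 0 members past the threshold, for age and for sex. Over all genes 129 higher and 37 lower passed for age without the old male library, 8 higher and 10 lower for sex without the young female library, and 0 in the other 6 fits. Those fits held age or sex alone. Across the alternatives the lowest adjusted p of a member with limma was 0.251 to 1 for age (0.251 without the old male library) and 0.121 to 1 for sex (0.121 without the young female library). No paired analysis was possible because the labels give no replicate numbers and each group has 1 library. Low members such as Abcd2 have no counting error here, and coverage was lowest in the old female library.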

Other observations

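Some low genes outside the analysed set appear in the authors' deposited tables, and no difference of them was tested. For the thioesterase gene Acot3 the authors' deposited table gives 0.0675 RPKM for young and 0.371 for old females, and 0.0817 for young and 0.195 for old males. For Ddo, which oxidises D-aspartate, the authors' deposited table gives 0.0479 RPKM for young and 0.222 for old females. For the fatty acid transporter gene Slc27a2 the authors' deposited table gives 0.205 RPKM for young and 0.432 for old females. For Cpt1b, the muscle form of mitochondrial carnitine palmitoyltransferase, the authors' deposited tables give 0.0639 and 0.961 RPKM for young and old females, and 0.304 and 0.615 for young and old males.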
